A study of Mus musculus with 8 samples.

Results

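The genes described here are carbonic anhydrase genes read in mouse ventricle, Car2, Car3, Car4, Car5b, Car7, Car8 and Car14, 7 of the 16 family members in a table of 38293 mouse genes. They were chosen from the family by a list drawn up with earlier results of the same data in view, among them the fold changes and calls of the heterozygous over wild-type contrast, in which Car7 was already known to stand out. The fold changes of these 7 genes are therefore given as a description, and no test of them is offered. All 7 passed the filter on low counts, as did Car11, Car13 and Car15 of the other 9 family members.

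Carbonic anhydrases catalyse the reversible conversion of carbon dioxide and water into bicarbonate and a proton, at a zinc ion held by histidines in the active site. The isoforms are encoded by separate genes and sit in the cytosol, in mitochondria or on membranes with the catalytic site facing outwards. In heart muscle they work beside the transporters that move bicarbonate, protons and lactate, and so take part in the handling of acid made by metabolism. Some family members have lost zinc-binding histidines and do not catalyse the reaction.

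The samples were mixed left and right ventricle of mice at 8 weeks of age, 4 with the genotype labelled PKP2 c.1755A/WT (HET) and 4 labelled PKP2 WT/WT (WT). The series title calls the same allele a deletion at coding position 1755, and no strain or treatment is labelled. Poly(A)-selected RNA was sequenced with a stranded kit. Nothing labels the samples as separate animals, so the spread within a group may be partly technical.

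The libraries held 38611008, 32397302, 38194462 and 35942073 counts in HET replicates 1 to 4, and 41234883, 40119645, 39631798 and 38510257 counts in WT replicates 1 to 4. Pkp2, which encodes the desmosomal protein plakophilin-2, averaged 97.3 ± 7.2 CPM in HET, against 163 ± 9.6 CPM in WT (SD, n = 4 each; CPM, counts scaled to a common library total with TMM factors). The edgeR quasi-likelihood fit gave it a log2 fold change of -0.74 (SE 0.065) and a Benjamini-Hochberg adjusted p of 0.00376, and called no other of the 14567 genes tested. At an unadjusted p under 0.05 it listed 930 genes. WT replicate 3 stood apart, with 14.7% of its counts from mitochondrially encoded genes against 17.1% to 19.1% in the other 7 libraries, and values without it are given for Car7, Car14 and Car4, in which it was the highest or lowest library. Markers of heart muscle cells summed to 86472 to 90297 CPM in HET and 80811 to 87146 CPM in WT, and the 5 atrial markers to 231 to 473 CPM in HET and 282 to 370 CPM in WT, with Myl7 and Sln at an average of 3 counts or fewer per library. The 7 macrophage markers summed to 322 to 378 CPM in HET and 332 to 474 CPM in WT, highest in WT replicate 3. The 7 fibroblast markers summed to 949 to 1184 CPM in HET and 1012 to 1172 CPM in WT. All 7 macrophage (median -0.06) and all 7 fibroblast markers (median -0.08) had a negative log2 fold change, beside 48.5% positive over all genes tested. Of these markers 0 were called, where the fit called 0.00686% of all genes tested. All 6 tested erythroid markers (median 0.05) and all 4 tested adipocyte markers (median 1.59) had a positive log2 fold change, with 0 called. Cidea, which held most of the summed adipocyte level, had a log2 fold change of 0.03. Without Cidea, the adipocyte sum was 5.70 and 7.22 CPM in HET replicates 1 and 3. It was 2.12 and 0.67 CPM in HET replicates 2 and 4, and 0.53 to 1.52 CPM in WT. Among the other tested markers, positive changes numbered 6 of 8 for heart muscle cells, 4 of 10 for capillary endothelium and 4 of 7 for smooth muscle and pericytes. They numbered 4 of 6 for nerve and Schwann cells, 1 of 4 for skeletal muscle and 0 of 3 for atrial markers, with 0 called. No test of these lists was made. In bulk tissue, a different number of cells of a type and a different amount of RNA per cell cannot be told apart.

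The coding sequence around the zinc site shows how the 7 products differ. The lines give the bases for the first 2 of the 3 zinc-binding histidines with 3 codons on either side, 5′ to 3′ on the coding strand, from GENCODE M21 transcripts (GRCm38), and the capitals mark the codons aligned with histidines 94 and 96 of Car2, counted from its first methionine.

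Car2: atccagtttCACtttCACtggggctca

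Car3: cgccaattcCATcttCACtggggctcc

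Car4: gtacagttgCACctgCACtggtcaaat

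Car5b: aagcagtttCATtttCATtggggagcc

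Car7: aagcagctcCACttcCACtggggcaag

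Car8: tatgaagttAGAtttCACtggggaaga

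Car14: gcccagctcCACctgCACtggggtcag

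In 6 of the 7 genes both codons encode histidine, CAC or CAT. Car8 has AGA, an arginine codon, at the first position, the change H94R in Car2 numbering, and keeps 2 of the 3 histidines. The third histidine, at Car2 position 119, was present in all 7. Of the other family members, Car10 carried H94R and H119Q, and Car11 carried H94R, H96L and H119Q and so had 0 of the 3. Identity of the aligned protein sequences ranged from 30.1% (Car4 and Car8) to 56.9% (Car2 and Car3), and Car7 shared 55.0% with Car2.

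By RNA level per exon length, the membrane-bound members made up most of the family in the ventricle. Protein and enzyme activity were not measured in these data. Car14, a transmembrane isoform of heart muscle whose active site faces outwards, was the most abundant at a mean of 158 ± 17.0 TPM in HET and 153 ± 9.6 TPM in WT (SD, n = 4 each; TPM, counts per exon length scaled to the same sum in every library). It made up 68.0% to 73.7% of the summed TPM of the 16 genes in single libraries. Car4, which is tied to the outer membrane face by a lipid anchor, followed with 32.3 ± 2.8 TPM in HET and 33.7 ± 3.9 TPM in WT. Car8, which lacks catalysis and is best known from Purkinje cells of the cerebellum, came next with 10.7 ± 1.1 TPM in HET and 13.6 ± 2.3 TPM in WT. The ranges of these 3 genes over the 8 libraries did not overlap, nor did that of Car8 overlap the range of the next gene.

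The cytosolic enzymes came lower. Car7 averaged 4.42 ± 0.26 TPM in HET and 6.52 ± 1.04 TPM in WT, and Car2, the fast and widely expressed enzyme of the cytosol, 4.86 ± 0.65 TPM in HET and 4.74 ± 1.09 TPM in WT. Together with the acatalytic Car11 (6.13 ± 0.68 TPM in HET and 6.30 ± 0.55 TPM in WT) these genes overlapped in range, so their order was not fixed. Car7 lay above Car2 in 1 of 4 HET libraries and 4 of 4 WT libraries. That order rests on the length used. With the longest transcript in place of the union of exons, the mean of Car7 over the 8 libraries was 8.40 TPM in place of 5.47 TPM, and Car7 lay above Car2 in 4 of 4 HET and 4 of 4 WT libraries. Car7 then lay above Car11 in 3 of 4 HET and 4 of 4 WT libraries, in place of 0 of 4 and 1 of 4. Car3, a cytosolic isoform of muscle and fat with weak catalytic activity, spanned 0.44 to 4.12 TPM. Car5b, the mitochondrial isoform, was the lowest of the 7 at 0.32 ± 0.10 TPM in HET and 0.28 ± 0.07 TPM in WT.

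**Figure D1:**
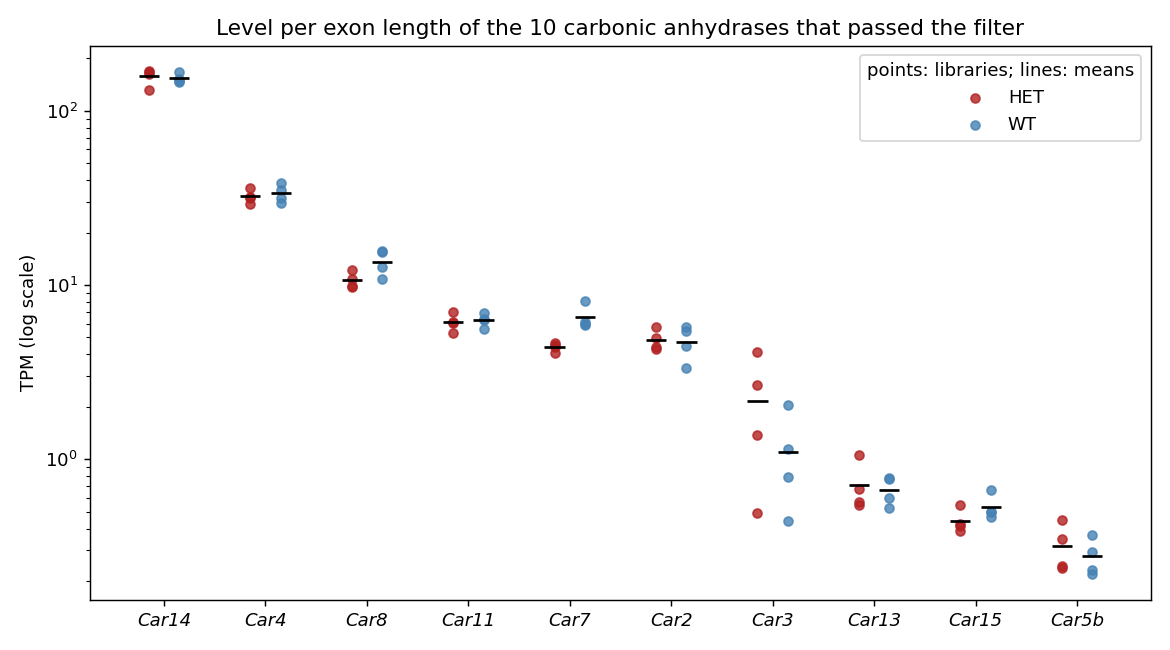
Level per exon length (TPM, log axis) of the 10 carbonic anhydrase genes that passed the filter, in order of their mean, with HET libraries left and WT libraries right of each tick (points, 1 library each; lines, group means). Car14 lies between 132 and 169 TPM in every library, above Car4 at 29.2 to 38.4 TPM, and Car5b lies lowest.

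Summed by place, the outward-facing and secreted members held 86.6 ± 0.95% of the family's TPM in HET and 84.9 ± 0.97% in WT. Cytosolic members held 5.57 ± 0.70% in HET and 5.93 ± 1.14% in WT, and the acatalytic Car8, Car10 and Car11 held 7.67 ± 0.49% in HET and 9.03 ± 1.06% in WT. The summed level of the family was 220 ± 17.8 TPM in HET and 221 ± 9.6 TPM in WT.

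Of the 7 genes, Car7 differed most in relation to the spread between libraries, and it was lower in HET. Car7 (ENSMUSG00000031883; chromosome 8, 104534689 to 104550343, plus strand, GRCm38) encodes a cytosolic isoform known from neurons and muscle. It stood at 6.65, 6.55, 5.70 and 6.09 CPM in HET replicates 1 to 4, against 8.17, 8.63, 10.32 and 8.58 CPM in WT replicates 1 to 4. Every HET library lay below every WT library. The mean was 6.25 ± 0.44 CPM in HET, 70.0% of the 8.92 ± 0.95 CPM in WT (SD, n = 4 each). The log2 fold change was -0.51 (SE 0.100, 95% interval -0.73 to -0.29, not adjusted for the number of genes). WT replicate 3, the highest library, also had the highest sum of macrophage markers (474 CPM). HET replicate 3 was lowest in both, with a marker sum of 322 CPM. HET replicates 1 and 4 had higher marker sums (378 and 373 CPM) than WT replicates 1 and 2 (332 and 340 CPM), but lower Car7. Without WT replicate 3 the log2 fold change of Car7 was -0.44. The part of macrophages in the Car7 level was not tested.

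The edgeR fit over all genes called 0 of the 7 members, where it called 0.00686% of all genes tested. DESeq2 called 1 of the 7, Car7, where it called 0.0895% of genes. CPM of all HET libraries lay below all WT libraries for 1 of the 7 genes, again Car7, and for 2.08% of all genes tested. The contrast took part in choosing the genes, so nothing is read from these shares. Over the 16 alternative fits the log2 fold change of Car7 ran from -0.56 to -0.44, and in 15 of them Car7 was not called.

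Car8 (ENSMUSG00000041261; chromosome 4, 8143362 to 8239041, minus strand), whose product binds the inositol trisphosphate receptor, had a lower mean in HET, with overlapping groups. It stood at 18.3, 14.9, 14.7 and 15.9 CPM in HET replicates 1 to 4 and at 22.8, 23.7, 17.3 and 15.9 CPM in WT replicates 1 to 4. WT replicates 1 and 2 were high, and WT replicates 3 and 4 lay within the range of HET. The mean was 15.96 ± 1.66 CPM in HET, 80.1% of the 19.9 ± 3.9 CPM in WT. The log2 fold change was -0.32 (SE 0.135, interval -0.62 to -0.02).

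**Figure D2:**
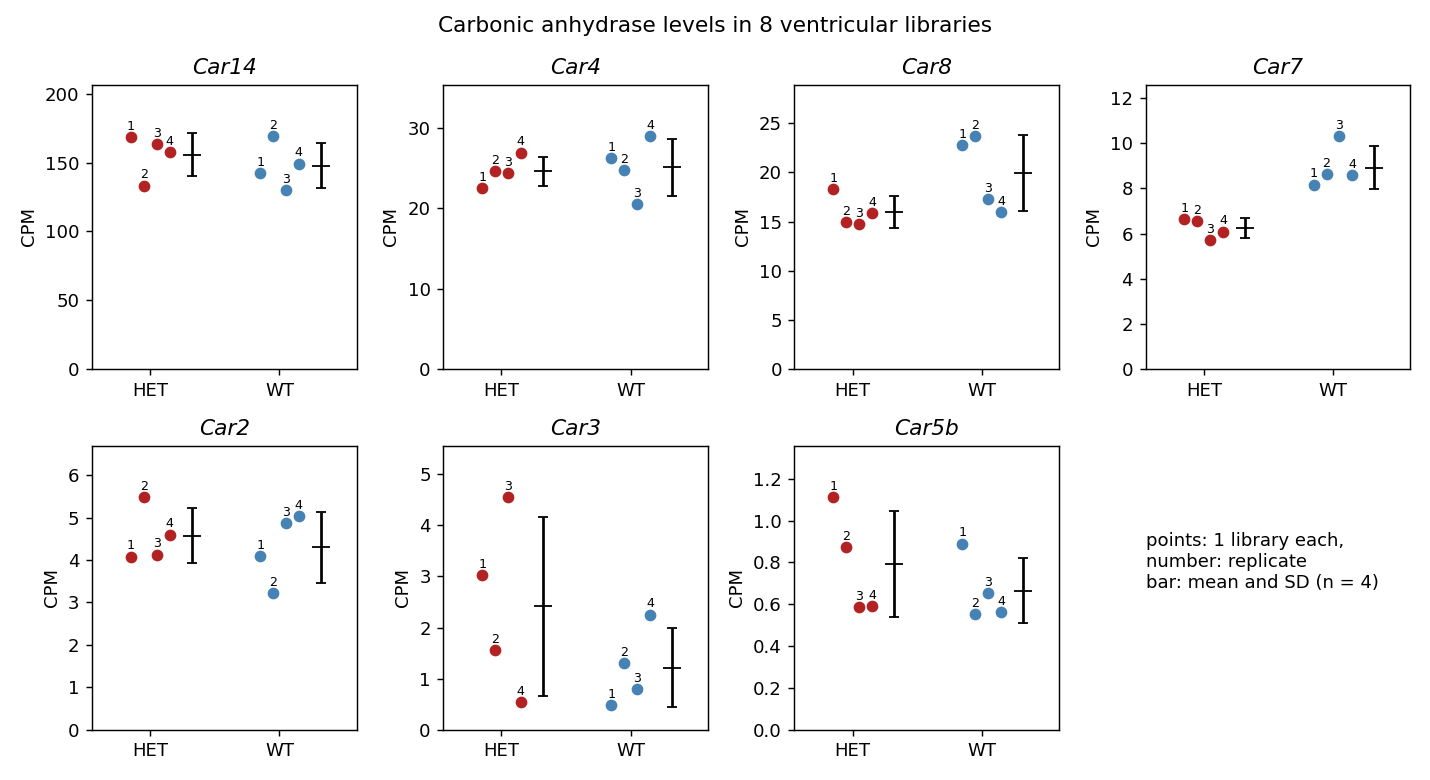
CPM of the 7 genes in each library, HET left and WT right, on axes from 0 (points, libraries with their replicate number; bars, mean and SD, n = 4). Car7 is the gene whose groups do not overlap, at 5.70 to 6.65 CPM in HET and 8.17 to 10.32 CPM in WT.

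The membrane-bound enzymes had closely similar means. Car14 (ENSMUSG00000038526; chromosome 3, 95897768 to 95904691, minus strand) stood at 169, 133, 163 and 157 CPM in HET replicates 1 to 4, against 143, 169, 130 and 149 CPM in WT replicates 1 to 4. The groups overlapped widely, with HET replicate 2 and WT replicate 3 lowest. The log2 fold change was 0.08 (SE 0.091, interval -0.13 to 0.28), and 0.02 without WT replicate 3. Of the exonic bases of Car14, 17.5% are shared with Aph1a on the opposite strand, and the strand setting of the counting was not given in the sources used here. Aph1a, which encodes a gamma-secretase subunit, held 23.3 to 27.5 CPM in HET and 24.2 to 27.8 CPM in WT, well below Car14.

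Car4 (ENSMUSG00000000805; chromosome 11, 84957786 to 84966044, plus strand), which in heart is found on capillary endothelium as well as on muscle membranes, stood at 22.5, 24.7, 24.4 and 26.9 CPM in HET replicates 1 to 4. In WT replicates 1 to 4 it stood at 26.2, 24.7, 20.5 and 29.0 CPM. HET lay inside the range of WT, and the log2 fold change was -0.03 (SE 0.099, interval -0.25 to 0.19), and -0.11 without WT replicate 3. The 10 capillary endothelial markers summed to 2394 to 2539 CPM in HET and 2233 to 2535 CPM in WT, lowest in WT replicate 3, as for Car4, but highest in HET replicate 4 and WT replicate 1. WT replicate 4, the highest in Car4, had an endothelial sum of 2400 CPM. The part of endothelium in the Car4 level was not tested.

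Since 2 genes of the same library share its depth and scaling, counts were also set against those of Car14. Car7 had 3.95, 4.92, 3.50 and 3.87 counts per 100 Car14 counts in HET replicates 1 to 4, and 5.73, 5.10, 7.95 and 5.75 in WT replicates 1 to 4. The groups again did not overlap, by a narrow margin between HET replicate 2 and WT replicate 2. Car8 had 10.3 ± 0.98 counts per 100 Car14 counts in HET, against 13.5 ± 2.2 in WT, and here WT replicate 4 lay within the range of HET. These ratios reuse the counts of the same contrast and are no further support for it.

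**Figure D3:**
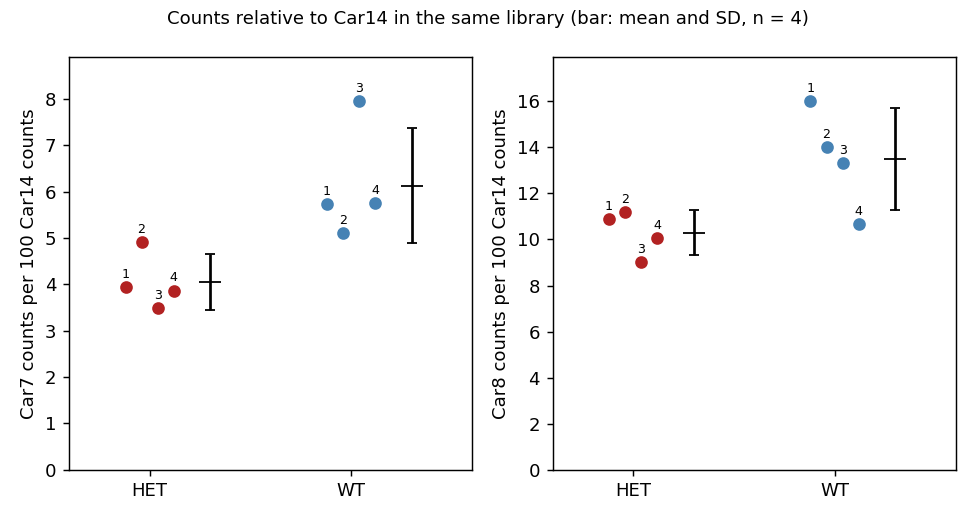
Car7 (left panel) and Car8 (right panel) counts per 100 Car14 counts of the same library, HET left and WT right, on axes from 0 (points, libraries with replicate number; bars, mean and SD, n = 4). The highest HET library reaches 4.92 for Car7 and the lowest WT library 5.10.

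Among the cytosolic enzymes, Car2 did not separate the groups and Car3 varied most between libraries. Car2 (ENSMUSG00000027562; chromosome 3, 14886273 to 14900770, plus strand) stood at 4.08, 5.49, 4.13 and 4.60 CPM in HET replicates 1 to 4, against 4.09, 3.22, 4.88 and 5.05 CPM in WT replicates 1 to 4. Its log2 fold change was 0.09 (SE 0.159, interval -0.27 to 0.44), and the sign changed without HET replicate 2 (-0.01) or WT replicate 2 (-0.03). Car2 and Car1 are also enzymes of red blood cells. The 10 erythroid markers found in the table summed to 302 to 392 CPM in HET and 212 to 495 CPM in WT, mostly from globin genes. Alas2, which encodes the heme synthesis enzyme of red cell precursors, held 12.4 to 15.1 CPM in HET and 7.98 to 20.7 CPM in WT, while Epb42, Klf1 and Rhag averaged 3 counts or fewer. The sum and Alas2 were lowest in WT replicate 2, which was also lowest in Car2, and were highest in WT replicate 3, where Car2 was at 4.88 CPM. Car1 had 0 counts in all 8 libraries, which allows up to 0.0728 to 0.0926 CPM per library (3 counts of the total, counting error only). The part of red cells in the Car2 level was not tested.

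Car3 (ENSMUSG00000027559; chromosome 3, 14863512 to 14872523, plus strand) stood at 3.02, 1.56, 4.56 and 0.53 CPM in HET replicates 1 to 4, against 0.48, 1.31, 0.80 and 2.25 CPM in WT replicates 1 to 4. HET replicates 3 and 1 were high, while HET replicate 4 lay beside the lowest WT library. The highest library held 9.48 times the CPM of the lowest, against 1.30 times for Car14. The log2 fold change was 1.01 (SE 0.691, interval -0.61 to 2.63), and 0.50 without HET replicate 3, 1.35 without HET replicate 4 and 1.49 without WT replicate 4.

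Fat cell markers were set beside Car3, a gene of fat as well as muscle. Of the 8 adipocyte markers, Lep was at 0 counts in every library and Cidea, at 22.6 to 28.4 CPM in HET and 22.6 to 28.8 CPM in WT, held most of the summed level. All 8 summed to 28.3, 30.5, 31.6 and 25.3 CPM in HET replicates 1 to 4, against 23.8, 24.2, 24.6 and 30.2 CPM in WT replicates 1 to 4. HET replicate 3, the highest in Car3, was the highest in this sum, but HET replicate 1, next in Car3, was only the fourth. Without Cidea, a choice made after the values were seen, the other 7 markers summed to 5.70, 2.12, 7.22 and 0.67 CPM in HET replicates 1 to 4 and to 0.53, 1.51, 1.52 and 1.49 CPM in WT replicates 1 to 4. This sum and Car3 were both highest in HET replicate 3, then in HET replicate 1, and lowest in WT replicate 1 and HET replicate 4. WT replicate 4 had the third highest Car3 at a marker sum close to those of WT replicates 2 and 3. Adipoq, the adipokine adiponectin, held 0.77 CPM in HET replicate 3 and 0.10 CPM in WT replicate 4. Skeletal muscle, another known site of Car3, had markers at 24.6 to 38.2 CPM in HET and 27.9 to 47.0 CPM in WT, mostly from Mybpc2, while the fast myosins Myh1, Myh2 and Myh4 did not exceed 0.32 CPM in any library. Myh1, with 41 counts over the 8 libraries, was highest in the same libraries as Car3. It held 0.29 CPM in HET replicate 1 and 0.32 CPM in HET replicate 3, against 0.03 to 0.17 CPM in the other 6 libraries. Myh2, with 67 counts, was also highest in those libraries, and Tnni2 and Actn3 were highest in HET replicate 3. Mybpc2, Mylpf and Tnnt3 were highest in WT replicate 1, the lowest in Car3. Myh4 was highest in HET replicate 2, Mybpc1 in WT replicate 3 and Pvalb in HET replicate 4. The part of fat or other tissue in the Car3 level was not tested.

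**Figure D4:**
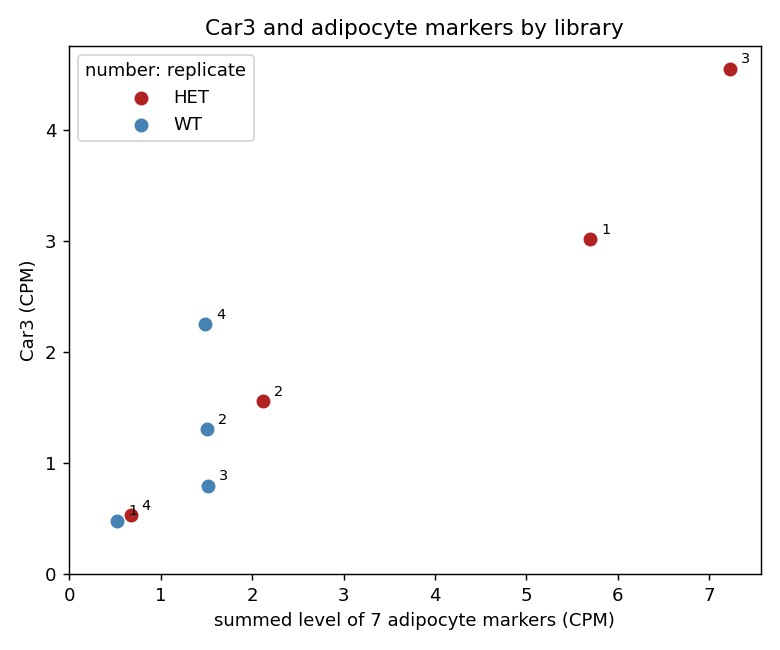
Car3 CPM (vertical axis) against the summed CPM of 7 adipocyte markers, Cidea left out (horizontal axis), 1 point per library with its replicate number. HET replicates 1 and 3 lie apart at the upper right, with marker sums of 5.70 and 7.22 CPM, and the other 6 libraries lie at marker sums of 0.53 to 2.12 CPM.

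Car5b (ENSMUSG00000031373; chromosome X, 163976822 to 164027997, minus strand) supplies bicarbonate inside mitochondria and was near the lower end of what was tested. It stood at 1.11, 0.87, 0.59 and 0.59 CPM in HET replicates 1 to 4, against 0.89, 0.55, 0.65 and 0.56 CPM in WT replicates 1 to 4, from 21 to 42 counts in HET and 22 to 37 counts in WT. The groups overlapped, and HET replicate 1 was highest. The log2 fold change was 0.25 (SE 0.276, interval -0.36 to 0.86), and 0.03 without HET replicate 1.

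Of the remaining carbonic anhydrases, Car11 lay at the level of Car7 and Car2, and the others were weakly expressed or near 0. Car11 had a log2 fold change of -0.01 (SE 0.127), Car13, a cytosolic isoform, 0.14 (SE 0.270) and Car15, a lipid-anchored isoform, -0.22 (SE 0.265), with adjusted p-values of 0.880 to 0.994 (edgeR, quasi-likelihood, Benjamini-Hochberg). The hypoxia-induced membrane isoform Car9 had 1 to 6 counts in HET and 2 to 9 counts in WT. Car5a, Car6, Car10 and Car12 had at most 5 counts in any library. Car13, Car1, Car3 and Car2 lie beside each other on chromosome 3, between 14641727 and 14900770, so the neighbours of this cluster ran from 0 counts to several CPM. Over the 10 family genes tested, 5 had a positive log2 fold change and the median was 0.03, beside 48.5% positive and a median of -0.00 over all genes tested. For the 7 members the numbers were 4 positive and a median of 0.08.

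**Figure D5:**
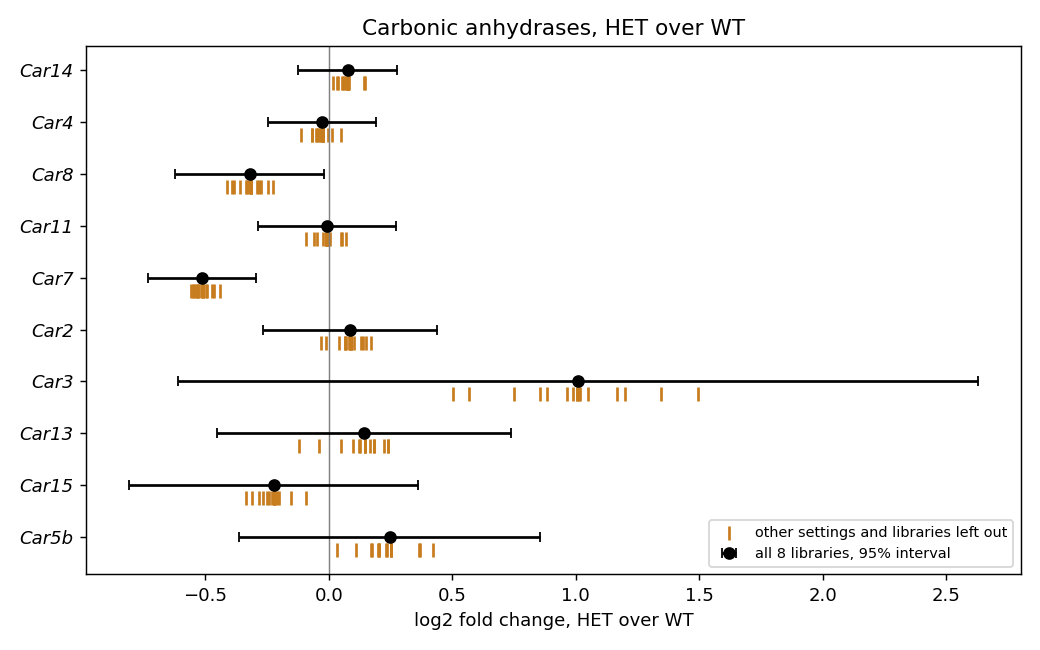
Log2 fold change of HET over WT for the 10 tested carbonic anhydrase genes (black points) with 95% intervals from the edgeR fit, not adjusted for the number of genes, and the values under other settings or with 1 library left out (orange marks). Car7 lies at -0.51 with all marks between -0.56 and -0.44, while Car3 spreads from 0.50 to 1.49.

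The sample titles hold digits whose meaning is not labelled and by which the libraries form 3 sets. In the set of 3 HET libraries and 1 WT library, the difference of mean log2 CPM (HET minus WT) was -0.41 for Car7, -0.49 for Car8 and 1.93 for Car3. In the set of 1 HET library and 2 WT libraries, it was -0.52 for Car7, -0.15 for Car8 and 0.20 for Car3. Car5b (-0.27 in the first set and 0.49 in the other), Car14 (0.19 and -0.06) and Car4 (-0.09 and 0.02) did not keep a sign. The last set is a single WT library.

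Genes of acid and base transport, which include transporters and also scaffolds, chaperones and regulators, gave no call. The edgeR fit called 0 of 27 tested genes of acid and base transport, where it called 0.00686% of all genes tested. Of the 27, 13 had a positive log2 fold change, with a median of -0.00, beside 48.5% positive and a median of -0.00 over all genes tested, and Slc4a10 and Slc26a3 were at 0 counts in every library. The most abundant per length was Bsg, the basigin chaperone of lactate transporters, with 1176 ± 36 CPM in HET against 1115 ± 101 CPM in WT. It was followed by the water channel Aqp1 with 472 ± 8.1 CPM in HET against 433 ± 43 CPM in WT. The lactate transporter Slc16a1 had 251 ± 7.4 CPM in HET against 238 ± 16 CPM in WT, and the scaffold Slc9a3r2 had 123 ± 10 CPM in HET against 132 ± 1.8 CPM in WT. These 4 genes overlapped between the groups. The smallest p belonged to Slc9a3r1, a scaffold of ion transporters (log2 fold change -0.37, SE 0.115), and to the anion exchanger Slc26a6 (0.16, SE 0.076), both with an adjusted p of 0.770 (edgeR, quasi-likelihood, Benjamini-Hochberg). Slc9a3r1 was the 1 gene of the 27 with all HET libraries below all WT libraries, which held for 2.08% of all genes tested.

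Of the carboxylases, enzymes that fix bicarbonate, 0 of 8 tested were called, where the fit called 0.00686% of all genes tested. All 8 had a positive log2 fold change, 0.02 to 0.13 with a median of 0.08, beside 48.5% positive and a median of -0.00 over all genes tested. No test of the list was made. Acacb, the acetyl-CoA carboxylase of muscle, averaged 599 ± 36 CPM in HET, against 551 ± 5.5 CPM in WT (log2 fold change 0.12, SE 0.049). It was the 1 gene of the 8 with all HET libraries above all WT libraries, which held for 1.7% of all genes tested. Pcx, the mitochondrial pyruvate carboxylase, averaged 46.6 ± 3.6 CPM in HET, against 42.6 ± 3.3 CPM in WT (0.13, SE 0.071). The propionyl-CoA carboxylase subunits Pcca (0.03, SE 0.053) and Pccb (0.03, SE 0.061) and the methylcrotonyl-CoA carboxylase subunit Mccc2 (0.06, SE 0.050) differed less.

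Hypoxia-responsive genes, the group to which Car9 belongs in other tissues, held 8 positive log2 fold changes among 12 tested, with a median of 0.06 and 0 called, beside the same 48.5% positive and 0.00686% called over all genes tested. Egln1, an oxygen-sensing hydroxylase, averaged 543 ± 12 CPM in HET, against 496 ± 31 CPM in WT (0.13, SE 0.052), and was the 1 gene of the 12 with all HET libraries above all WT libraries, beside 1.7% of all genes tested. Pfkfb3, a regulator of glycolysis, averaged 10.4 ± 0.96 CPM in HET, against 18.8 ± 10.6 CPM in WT (-0.85, SE 0.381). Ldha (0.08, SE 0.069), Vegfa (0.14, SE 0.098) and Pgk1 (-0.00, SE 0.044) were the other abundant members.

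The genes whose log2 CPM ran most like that of each member over the 8 libraries are given as a description. They are the highest of about 11956 correlations each, and both genes of a pair share the differences in depth and genotype between the libraries, so no p is given. For Car7 they were Espl1, the separase of sister chromatids (Pearson r 0.96, Spearman rho 0.98), Ncaph, a condensin subunit (r 0.96, the same rank order as Car7 in all 8 libraries), and the methyltransferase Mettl9 (0.95, 0.90). Without HET replicate 3 and WT replicate 3, the libraries farthest from the median of Car7, r was 0.94, 0.92 and 0.90. Espl1 averaged 0.58 TPM and Ncaph 0.91 TPM over the 8 libraries, and their log2 fold changes were -0.78 and -0.79.

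For Car8 they were Cntn2, contactin-2, an adhesion protein of neurons and of the cardiac conduction system (r 0.96, rho 0.86), Asb12 (0.95, 0.79) and Fam213b (0.95, 0.90). Without WT replicates 1 and 2 the r of Cntn2 fell to 0.67, so that likeness rests on those libraries in part. For Car14 they were C1d (r 0.98), the retinol acyltransferase Lrat (0.96) and the small GTPase Arf1 (0.96). For Car4 they were the phosphodiesterase Pde1a (0.98), the cobalamin carrier Tcn2 (0.96) and Tent2 (0.95).

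For Car2 they were Hacd2 (r 0.97), Tppp3 (0.95) and the sorbitol dehydrogenase Sord (0.95). For Car3 they were Spryd4 (0.94), Dysf, the membrane repair protein dysferlin (0.94), and Dpy30 (0.94), with log2 fold changes of 0.04 to 0.07 beside the 1.01 of Car3. For Car5b they were Prune2 (0.92), Cops7b (0.92) and Mindy1 (0.91), and without HET replicate 1 and WT replicate 1 these were 0.79, 0.74 and 0.80.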

How the data were processed

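The deposited values are read counts per Ensembl gene made by the authors, whole numbers in 8 columns that each match 1 sample title. STAR 2.4.2a, HTSeq 0.6.1 and GRCm38/mm10 are named per the submitters' processing notes; annotation and strand setting: not given in the sources used here. Symbols matched 36345 of 38293 genes. Counts were fitted with edgeR 4.0.16 in R 4.3.3 (filterByExpr, TMM, quasi-likelihood test, robust, no covariate), and p-values of the 14567 genes that passed were adjusted by Benjamini-Hochberg, threshold 0.05. The self-check of the fits ran on simulated counts. CPM used TMM-scaled library sizes; TPM used the union of GENCODE M21 exons; log2 CPM had a prior count of 2. Proteins were translated from GENCODE coding sequence and aligned with Biopython 1.88 (BLOSUM62).

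The 7 genes and all gene lists were chosen with earlier results of these data known. Genes named outside the family were, per list, every call, the 4 of highest TPM and the 2 of smallest p, and the 3 most like each member among genes of at least 1 CPM. Replicate numbers follow deposition order and pair nothing. Over 28 pairs of libraries the lowest mean chi-square was 14.6 per gene, where sampling alone gives about 1, so no library was another deposited again. Alternatives were other scalings and filters, DESeq2 1.42.0, limma-voom (limma 3.58.1), title digits as covariate, each library left out, and another gene length.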

Additional observations from a re-analysis of the deposited data

Results flagged for a closer look

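In 40 groups of 4 libraries, those of the 10 tested carbonic anhydrases and of 10 summed marker lists, 2 held a library whose distance from its nearest neighbour exceeded Dixon's 95% limit for the share of the group's range, where chance gives about 1 in 20. No carbonic anhydrase was among them, and 2 in 40 is no more than chance gives. The adipocyte marker sum was 30.2 CPM in WT replicate 4 and 23.8 to 24.7 CPM in the other WT libraries, mostly from Cidea. The atrial marker sum was 473 CPM in HET replicate 1 and 231 to 272 CPM in the other HET libraries. Car5b (1.11 CPM from 42 counts) and Car13 (0.95 CPM from 36 counts) were highest in that library. Car5b was next highest in WT replicate 1 (0.89 CPM, atrial sum 282 CPM) and HET replicate 2 (0.87 CPM, the lowest atrial sum at 231 CPM). Of the 5 atrial markers, Myl7 and Sln averaged 3 counts or fewer per library, so the sum came almost wholly from the other markers. The part of atrial tissue in the Car5b and Car13 levels was not tested.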

How the results depend on the processing

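The number of genes called over the whole table was 1 and became 2 with no filter on low counts and 13 with DESeq2. Leaving out each library in turn gave 1 to 3, with 3 without HET replicate 3. Of the carbonic anhydrases DESeq2 called 1, Car7, and the other 15 fits called 0. Acid and base transport, carboxylase and hypoxia genes had 0 calls in all 16 fits. The log2 fold changes of 6 of the 10 tested carbonic anhydrases kept their sign in every fit in which they were tested, Car7, Car8, Car3, Car14, Car5b and Car15. Car2 and Car4 changed sign in 2 fits each, all of which left out a library, Car13 in 2 and Car11 in 4. Car5b, Car13 and Car15 were removed by a filter of 1 CPM in at least 4 libraries. With longest-transcript lengths the mean TPM of Car14 was 190 in place of 155, and that of Car4 was 42.3 in place of 33.0. For Car7 it was 8.40 in place of 5.47 and for Car5b 0.45 in place of 0.30. RefSeq exon lengths were not used here. With 4 libraries a group and 21 to 42 counts of Car5b in HET and 22 to 37 in WT, small differences in the weakly expressed genes were not detectable at this depth.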

Other observations

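Car15 lies on chromosome 16 (17835276 to 17838364, minus strand), 1.56 Mb from Pkp2 (16213318 to 16272712), the mutated gene. It had 10 to 15 counts in HET and 13 to 19 counts in WT, and 65.7% of its exonic bases are shared with Gm20518 on the same strand, so its counts may be incomplete. Among the cytosolic enzymes, Car7 had 119 to 163 counts per 100 Car2 counts in HET and 170 to 268 in WT, without overlap between the groups. Car7 was chosen with this contrast known, so the ratio reuses the same counts and is no further support for it. The pair of members that ran most alike over the 8 libraries was Car7 and Car8 (Pearson r 0.50 on log2 CPM). The pair that ran most opposite was Car2 and Car8 (-0.75). These are descriptions, since both genes of a pair share the differences in depth and genotype between the libraries.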
